A study of Bos taurus with 8 samples.

Results

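The genes described here make glucose into lactate or answer to low oxygen. The set holds 35 of the 33132 genes of the deposited count table, taken by gene symbol: 23 genes of glucose transport, glycolysis and its regulation, and 12 genes of oxygen sensing and the hypoxia response. RNA had been sequenced from rumen, the first and largest chamber of the ruminant stomach, of 4 neonatal male calves and 4 adult steers (castrated males), with 1 library per animal. Every animal was an angus cross, and the labels name no treatment, diet, exact age or batch. The steers differ from the calves in age and in castration together, and these cannot be told apart here. Replicates are separate animals, so the spread given with each mean is the spread between animals. The series asks which genes and pathways accompany growth of the rumen after birth, and its design gives 1 comparison, steer against calf.

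Glycolysis breaks glucose down in the cytosol. Glucose enters through SLC2A transporters, hexokinases trap it as a phosphate, and phosphofructokinase makes the committed step. The PFKFB enzymes set the level of the sugar phosphate that activates phosphofructokinase. At the end of the chain, pyruvate is either reduced to lactate by lactate dehydrogenase or enters mitochondria, a step that the PDK kinases restrain. When oxygen is plentiful, EGLN prolyl hydroxylases mark the HIF alpha subunits for destruction. When oxygen is short the subunits persist and switch on their targets, which include many glycolytic genes (SLC2A1, LDHA, PFKFB3 and PFKFB4 among them) and the EGLN genes themselves. In the adult rumen, a stratified epithelium absorbs the short-chain fatty acids of microbial fermentation, whereas a newborn calf depends on glucose from milk.

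Library totals were 42322022 to 54449684 counts. Levels are given as CPM, each gene's count relative to its library's total, with totals scaled by the trimmed mean of M values. Markers of several cell types differed in level between the tissue pieces. Smooth muscle markers (MYH11, DES, CNN1 and 7 more) summed to 6373 to 18584 CPM in calves and to 56433, 109290, 51964 and 10939 CPM in steers 1 to 4, with 4 of the 9 tested markers higher and ACTA2 lower. Suprabasal epithelial markers (KRT4, KRT13 and 5 more) summed to 35648 to 87112 CPM in calves and 282 to 1505 CPM in steers, IVL and DSG1 having no count in any library. KRT4 and KRT13 made up most of these sums and were lower, whereas KRT10 and DSC2 did not pass the test. Basal epithelial markers overlapped, at 10353 to 15358 CPM in calves and 7683 to 15334 CPM in steers, with KRT14 higher among 6. Leukocyte markers summed to 11.8 to 15.3 CPM in calves and 20.9 to 44.8 CPM in steers, and blood endothelial markers to 219.5 to 489 and 169 to 239 CPM. Fibroblast markers summed to 1624 to 4736 CPM in calves and 566 to 1349.6 CPM in steers, with COL1A1, COL1A2 and DCN lower among 6. In whole tissue, fewer cells of a type and less RNA per cell cannot be told apart.

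Glycolysis did not move as a block between calf and steer. LDHA, PFKM and PFKFB4 rose in steers, PFKP fell, and the other 18 tested glycolytic genes did not pass the test. Among the 12 hypoxia genes, EGLN1, ADM and NDRG1 rose and none fell. With edgeR's quasi-likelihood test and Benjamini-Hochberg adjustment over 16326 genes, 7 of the 34 tested genes of the set passed an adjusted p of 0.05 (20.6%), beside 16.9% of all tested genes. For glycolysis the share was 4 of 22 (18.2%), near that background. For the hypoxia genes it was 3 of 12 higher (25%) beside 7.7% of all tested genes higher, and 0 of 12 lower beside 9.16%. The log2 change, as steer minus calf, was positive for 11 of the 12 hypoxia genes with a median of 1.24, for 9 of the 22 glycolytic genes with a median of -0.13, and for 8560 of all 16326 genes with a median of 0.04. The levels of the 2 groups of animals did not overlap for 11 of the 34 genes (32.4%), beside 23.3% of all tested genes. Leaving out calf 1 or calf 4 left 1 glycolytic and 1 hypoxia gene higher, and the number of glycolytic genes lower was 0 without calf 3 and 3 without steer 4.

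**Figure D1:**
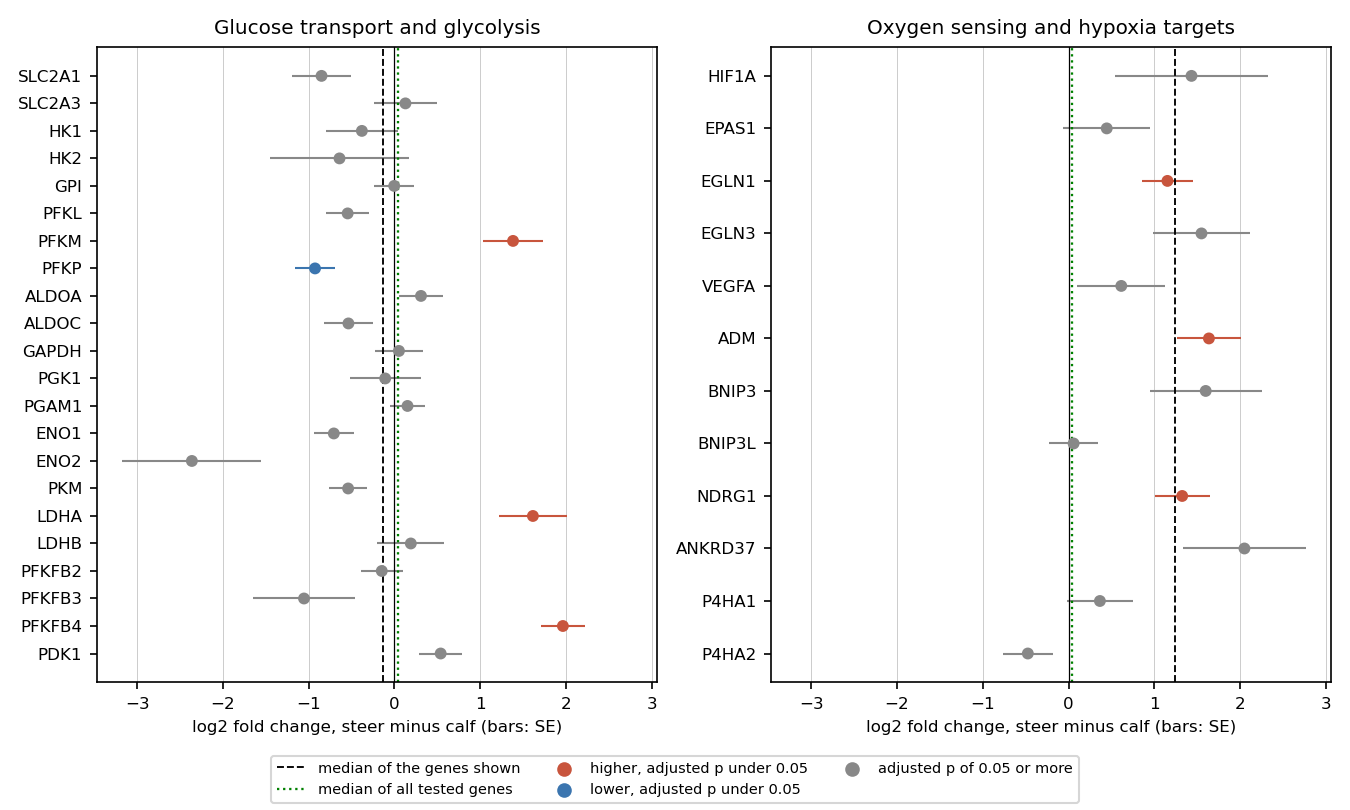
Log2 fold change of each tested gene, steer minus calf (x axis; points, with bars of 1 SE), for the 22 glycolytic genes (left) and the 12 hypoxia genes (right). Coloured points passed an adjusted p of 0.05; the dashed line is the median of the genes in the panel (-0.13 and 1.24) and the dotted line that of all tested genes (0.04).

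Of the 35 genes, TPI1, the triose phosphate isomerase, could not be measured: 100% of its span lies inside that of SPSB2, reads in more than 1 gene were not counted, and its count was 0 in every library. The other 34 passed the filter on low counts. Shared spans also thin the counts of PGK1 (90.1% of the span shared), HIF1A (54.5%), P4HA1 (24.6%), P4HA2 (20.3%) and ANKRD37 (16.8%). Introns were counted along with exons, so levels of different genes are not comparable, and only the same gene or the same ratio is compared between animals. Several glycolytic genes, such as GAPDH, PGK1, ENO1, LDHA and PGAM1, have near-identical processed copies elsewhere in mammalian genomes, with which they may share or lose reads.

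Neither of the glucose transporters in the set passed the test. SLC2A1 (GLUT1, the widespread basal transporter) had 64.8, 59.1, 49.5 and 34.6 CPM in calves 1 to 4 and 21.6, 17.1, 26.7 and 49.8 CPM in steers 1 to 4. Steers 1 to 3 lay below every calf, and steer 4 lay among the calves. Its log2 change was -0.85 ± 0.34 (SE; edgeR adjusted p = 0.119), and without steer 4 it passed the test at -1.25 (adjusted p = 0.0125). SLC2A3 (GLUT3) was at 5.35 ± 2.05 CPM in calves and 5.84 ± 2.19 CPM in steers (mean ± SD, n = 4 each). Among the hexokinases, HK1 averaged 35.5 ± 15.5 and 27.3 ± 14.2 CPM. HK2 was at 0.47 to 1.61 CPM in calves and 0.06 to 1.44 CPM in steers. GPI, which turns glucose phosphate into fructose phosphate, had nearly equal group means, 366 ± 58.5 and 366 ± 78.3 CPM.

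The 3 phosphofructokinase genes went different ways. PFKM, the muscle-type subunit (chromosome 5, 32145678 to 32189038), had 22.9, 35.5, 20.0 and 24.0 CPM in calves and 52.5, 86.0, 96.7 and 31.9 CPM in steers. Steers 1 to 3 exceeded every calf, whereas steer 4 lay below calf 2. Its mean went from 25.6 ± 6.8 to 66.8 ± 29.9 CPM, a 2.61-fold rise (log2 change 1.38 ± 0.35, edgeR adjusted p = 0.0237). PFKP, the platelet-type subunit (chromosome 13, 45107875 to 45160816), had 20.8, 27.5, 32.9 and 22.1 CPM in calves and 12.7, 12.7, 17.9 and 11.1 CPM in steers. Every steer lay below every calf, and PFKP fell by 0.93 ± 0.23 on the log2 scale (adjusted p = 0.0230). PFKL, the liver-type subunit, had 194 to 225 CPM in calves and 91.5 to 203.1 CPM in steers (log2 change -0.55 ± 0.25, adjusted p = 0.169).

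Within a library, PFKM made up 9.65%, 13.8%, 7.67% and 8.85% of all phosphofructokinase counts in calves 1 to 4, and 19.6%, 38.9%, 46.9% and 17.02% in steers 1 to 4. The share was higher in every steer than in any calf. Steers 2 and 3 had the highest PFKM shares and levels of the steers, and steer 4 the lowest of both. The smooth muscle sums of the steers were in another order, with steer 1 above steer 3. Of the 9 tested markers, MYH11 and MYLK had the PFKM order over the steers. DES, CNN1, SMTN, TAGLN, LMOD1, ACTA2 and ACTG2 did not. The part of smooth muscle in the PFKM values was not tested beyond a covariate. When the smooth muscle markers entered the fit as a covariate, PFKM changed by 0.71 on the log2 scale (adjusted p = 0.118), and with ACTA2 left out of those markers by 0.42 (adjusted p = 0.429). The PFKM call was also lost with unscaled library totals (adjusted p = 0.0658) and without calf 1, calf 3, calf 4, steer 2 or steer 3 (adjusted p of 0.0733, 0.0655, 0.0655, 0.0542 and 0.0651). The PFKP call was lost with unscaled totals (0.0547), with either covariate (0.0658 and 0.112), and without calf 3 (0.0663), steer 1 (0.0600), steer 2 (0.0556) or calf 2 and steer 4 together (0.0667), and its change stayed between -1.08 and -0.79 in these fits and in the fits without each of the other animals.

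None of the enzymes from aldolase to pyruvate kinase passed the test. ALDOA was at 966 ± 144 and 1197 ± 278 CPM in calves and steers, and ALDOC at 13.9 ± 0.91 and 9.57 ± 3.91 CPM. GAPDH, widely used as a reference gene, had 982, 1057, 1219 and 1257 CPM in calves and 1413, 1485, 1053 and 735 CPM in steers, so that the calves lay within the range of the steers. Its log2 change was 0.05 ± 0.28 (edgeR adjusted p = 0.923). That sign turned negative with unscaled totals (-0.10) and with the smooth muscle covariates (-0.27 and -0.40). PGAM1, the phosphoglycerate mutase, was at 172 ± 29.9 and 191 ± 21.0 CPM. PGK1, counted over the unshared rest of its span, was at 3.59 ± 1.73 and 3.33 ± 1.18 CPM.

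Enolase and pyruvate kinase had lower values in steers, short of the threshold. ENO1, the general enolase, had 421, 460, 579 and 535 CPM in calves and 392, 269.5, 246 and 316 CPM in steers. Each steer lay below each calf (log2 change -0.71 ± 0.23, edgeR adjusted p = 0.0642), and ENO1 passed the test with DESeq2 (0.0247), limma-voom (0.0499), unscaled totals (0.0268) and without steer 1 (0.0471). ENO2, the enolase typical of neurons, had 6.24, 4.71, 3.60 and 4.33 CPM in calves and 1.05, 0, 1.32 and 1.26 CPM in steers. The groups did not overlap for ENO2 either (log2 change -2.36 ± 0.81, adjusted p = 0.0748), and steer 2 had no ENO2 count. Without steer 2 the change was -1.95 and passed the test (adjusted p = 0.00746). Enteric neuron and glia markers moved the same way, from 39.7 to 58.1 CPM in calves to 17.8 to 28.9 CPM in steers, and their part in the ENO2 values was not tested. PKM, the pyruvate kinase of most tissues, had 418.8, 489.8, 593 and 488 CPM in calves against 413, 297, 308 and 352 CPM in steers (log2 change -0.54 ± 0.22, adjusted p = 0.120), again without overlap.

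LDHA, the lactate dehydrogenase subunit that favours lactate formation, rose. LDHA (chromosome 29, 26290887 to 26302946) had 229, 211, 422 and 204 CPM in calves and 1167, 429, 589 and 1084 CPM in steers. The lowest steer, steer 2, was just above the highest calf, calf 3. The mean went from 267 ± 104 to 817 ± 363 CPM, a 3.06-fold rise (log2 change 1.62 ± 0.39, edgeR adjusted p = 0.0207). LDHB, the subunit that favours lactate use, had 107, 117, 124 and 229 CPM in calves and 180.5, 252, 159 and 67.8 CPM in steers, which overlap (log2 change 0.19 ± 0.39, adjusted p = 0.785). The LDHA rise was larger with the smooth muscle covariates (2.18 and 2.46, adjusted p of 0.00430 and 0.00601). Its call was lost without calf 1 (adjusted p = 0.0653), calf 2 (0.0510) or calf 4 (0.0606), and without calf 2 and steer 4 together (1.35, 0.0655), with changes of 1.40 to 1.92 whichever animal was left out.

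PFKFB4 rose in steers with the groups far apart. This isoenzyme makes and removes the activator of phosphofructokinase, as do PFKFB2 and PFKFB3. PFKFB4 (chromosome 22, 51321977 to 51363429) had 7.92, 12.1, 13.1 and 17.5 CPM in calves and 46.1, 50.04, 42.4 and 59.2 CPM in steers. Even the lowest steer lay far above the highest calf, and PFKFB4 rose 3.90-fold from 12.7 ± 3.9 to 49.4 ± 7.2 CPM (log2 change 1.96 ± 0.26, edgeR adjusted p = 0.00122). It was called in all 21 alternative analyses, with log2 changes of 1.80 to 2.21. PFKFB3, the isoenzyme known for strong kinase activity, had 20.9, 29.5, 42.03 and 20.0 CPM in calves and 8.997, 3.34, 8.82 and 32.9 CPM in steers. Steers 1 to 3 lay below every calf, while steer 4 lay above calves 1, 2 and 4. Its log2 change was -1.05 ± 0.59 (adjusted p = 0.259) with all animals, -1.99 (adjusted p = 0.0113) without steer 4 and 0.21 with the covariate without ACTA2. PFKFB2, the heart isoenzyme, was at 19.9 ± 2.4 and 17.96 ± 5.4 CPM, and PDK1, the kinase that holds back pyruvate dehydrogenase, at 19.8 ± 5.1 and 28.8 ± 6.4 CPM (log2 change 0.54 ± 0.25, adjusted p = 0.175).

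**Figure D2:**
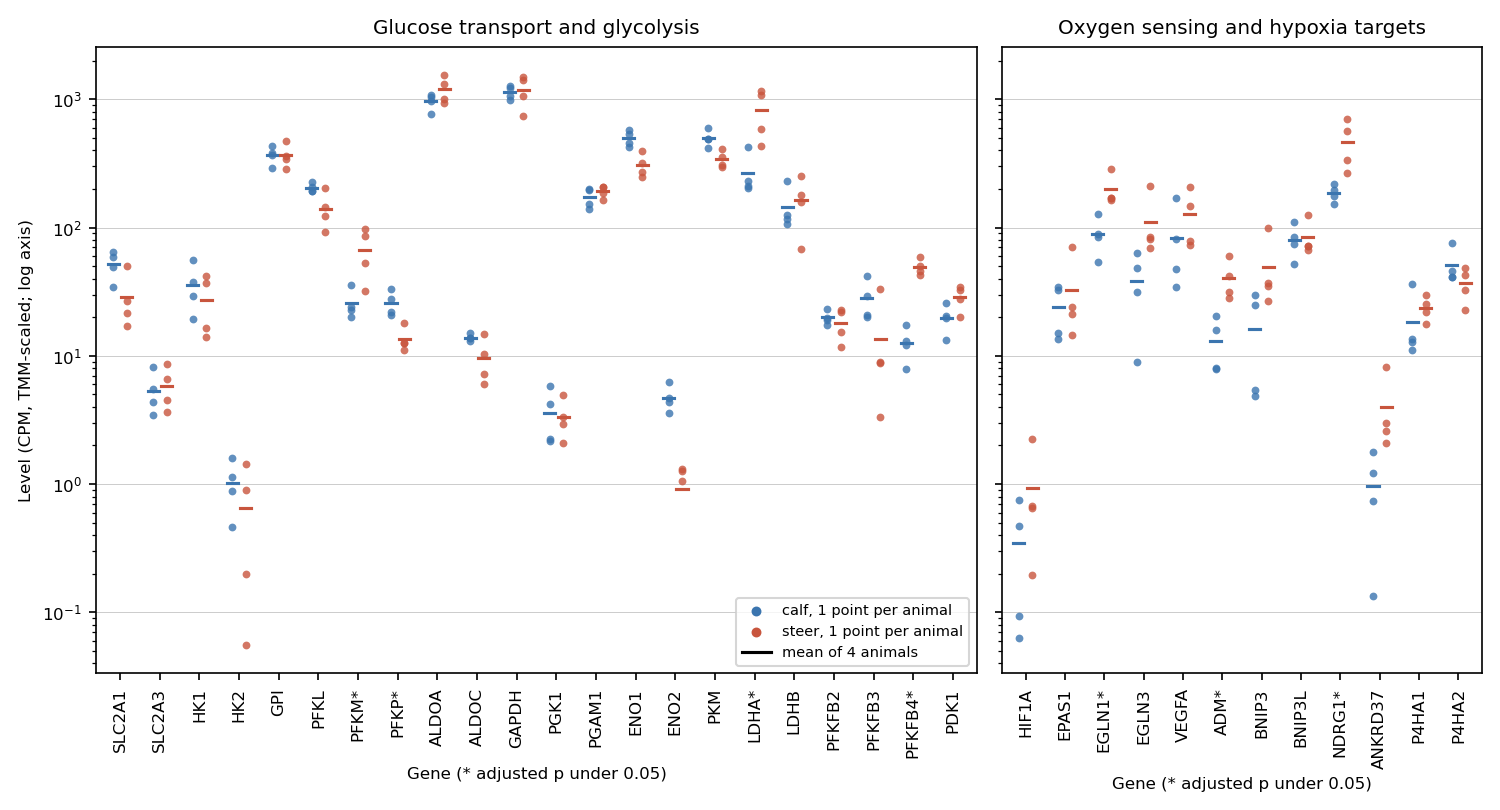
Level of each tested gene in each animal (y axis: CPM, log scale; 1 point per animal, bars mark the mean of 4; the 0 of ENO2 in steer 2 cannot be drawn), glycolysis on the left, hypoxia on the right, an asterisk marking genes that passed the test. The steers sit clear of the calves for PFKFB4 (42.4 to 59.2 against 7.92 to 17.5 CPM) and overlap them for PFKM.

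Ratios of related genes within a library do not depend on library scaling. For 4 of 13 such ratios, the calves and the steers did not overlap, each with a two-sided exact permutation p of 0.0286, the smallest that 4 against 4 allows, and none passed after adjustment over the 13 (adjusted p = 0.0929). PFKFB3 counts were 2.64, 2.44, 3.20 and 1.14 times those of PFKFB4 in calves and 0.20, 0.07, 0.21 and 0.56 times in steers. PFKFB4 thus made up 21.1 ± 6.6% of the counts of PFKFB2, PFKFB3 and PFKFB4 together in calves and 62.9 ± 10.9% in steers, while PFKFB3 went from 45.5 ± 8.4% to 14.6 ± 9.9%. The PFKM to PFKL ratio was 0.10 to 0.18 in calves and 0.22 to 1.06 in steers, and the ALDOA to ALDOC ratio 55.9 to 80.8 and 89.2 to 154. The ENO1 to ENO2 ratio was 67.5 to 161 in calves and 186 to 373 in steers 1, 3 and 4, with no ENO2 count in steer 2. The LDHA to LDHB ratio overlapped between the groups, at 2.14, 1.80, 3.40 and 0.89 in calves against 6.46, 1.70, 3.70 and 16.0 in steers (exact permutation p = 0.143, adjusted p = 0.186).

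**Figure D3:**
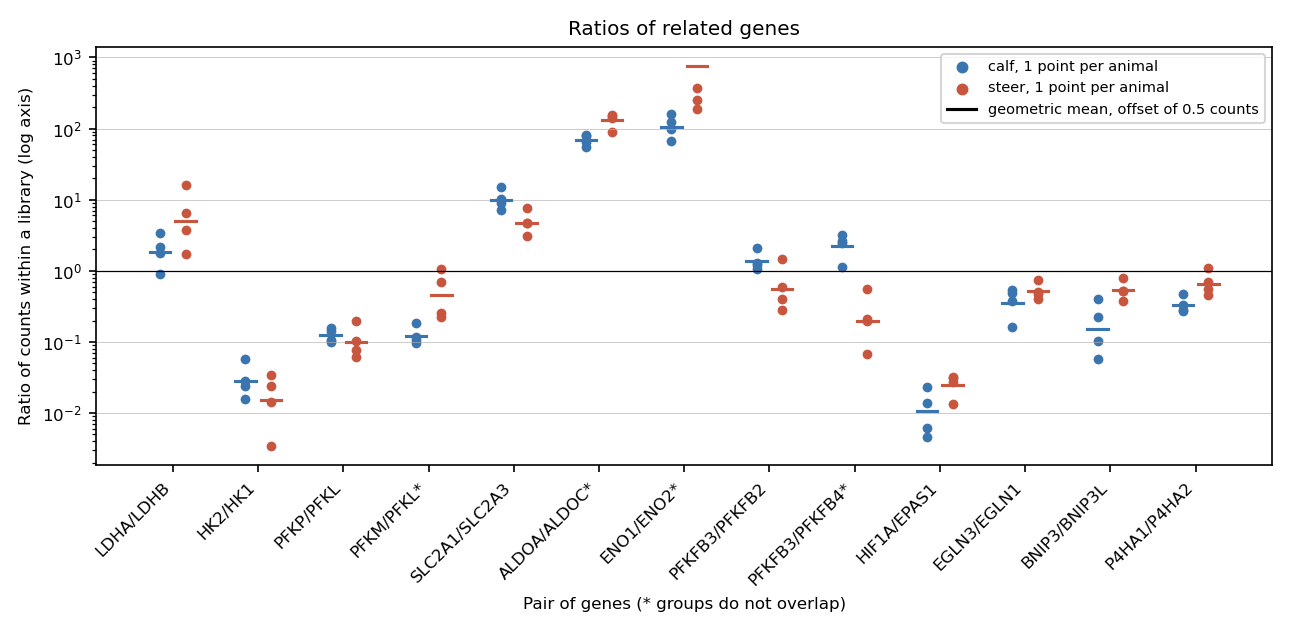
Ratio of the counts of related genes within a library (y axis, log scale; 1 point per animal; bars are geometric means after adding 0.5 counts; the ENO1/ENO2 ratio of steer 2 is not finite and not drawn, though its offset value enters the bar). Asterisks mark the 4 of 13 pairs in which calves and steers do not overlap, among them PFKFB3/PFKFB4, at 1.14 to 3.20 in calves and 0.07 to 0.56 in steers; only the shift between animals, not the side of 1, can be read.

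Of the oxygen sensors, EGLN1 rose and the HIF alpha subunits did not pass the test. EGLN1 encodes PHD2, the main prolyl hydroxylase that marks HIF alpha for destruction. EGLN1 (chromosome 28, 4087440 to 4150647) had 84.2, 89.5, 128 and 54.3 CPM in calves and 165, 171, 169.5 and 287 CPM in steers. Every steer exceeded every calf, and steers 1 to 3 lay close together below steer 4. The mean went from 89.0 ± 30.3 to 198 ± 59.3 CPM, a 2.22-fold rise (log2 change 1.15 ± 0.30, edgeR adjusted p = 0.0267). EGLN3 encodes PHD3, a hydroxylase that is itself a strong hypoxia target. EGLN3 had 31.2, 48.6, 63.1 and 8.95 CPM in calves and 83.7, 69.0, 81.2 and 211 CPM in steers. Those groups did not overlap, yet with calf 4 far below and steer 4 far above the rest the log2 change of 1.55 ± 0.56 missed the threshold (adjusted p = 0.0880). It passed with DESeq2 (0.0224) and with the smooth muscle covariates (0.0240 and 0.0254).

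EPAS1, the HIF2 alpha subunit prominent in endothelium, had 15.1, 34.3, 32.7 and 13.4 CPM in calves and 21.0, 14.6, 24.2 and 70.1 CPM in steers. Only steer 4 lay above the calves, and the log2 change turned from 0.45 to -0.26 without it. HIF1A, the widely expressed HIF1 alpha subunit, was counted over the unshared part of its span only, at 0.06 to 0.76 CPM in calves and 0.19 to 2.23 CPM in steers. That is 3 to 36 counts in calves and 7 to 127 in steers, so its log2 change of 1.43 ± 0.90 (edgeR adjusted p = 0.310) says little about the gene. HIF alpha is governed mainly through protein stability, which RNA does not show. The EGLN1 call was lost with unscaled totals (0.0665) and without calf 1 (0.0756), calf 2 (0.0559) or calf 4 (0.0605), and without calf 2 and steer 4 together (0.0694), with log2 changes of 0.92 to 1.38 whichever animal was left out.

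Among the hypoxia targets, ADM and NDRG1 rose. ADM encodes adrenomedullin, a vessel-dilating peptide. ADM (chromosome 15, 42377559 to 42379886) had 7.82, 20.3, 15.9 and 7.99 CPM in calves and 42.1, 28.1, 31.4 and 60.4 CPM in steers, with every steer above every calf. It rose 3.11-fold, from 13.02 ± 6.2 to 40.5 ± 14.5 CPM (log2 change 1.64 ± 0.38, edgeR adjusted p = 0.0165), and its call held without any single animal but not with unscaled totals (0.0569). NDRG1, a stress-responsive gene also linked to epithelial differentiation (chromosome 14, 8073221 to 8129607), had 177, 197, 218 and 152 CPM in calves and 566, 268, 334 and 696 CPM in steers. The steers again lay wholly above the calves, but were spread widely, steers 1 and 4 the highest. The mean rose 2.51-fold, from 186 ± 28.1 to 466 ± 200 CPM (log2 change 1.32 ± 0.32, adjusted p = 0.0206), and the call was lost without calf 1 (0.0630) or calf 4 (0.0613).

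The other targets did not pass the test. BNIP3, a mitophagy receptor, had 4.82, 30.0, 24.9 and 5.46 CPM in calves and 35.01, 26.8, 37.1 and 99.0 CPM in steers, where calves 1 and 4 lay far below calves 2 and 3 (log2 change 1.60 ± 0.65, edgeR adjusted p = 0.124). ANKRD37, a small ankyrin-repeat protein, had 1.21, 0.13, 1.77 and 0.73 CPM in calves and 2.57, 2.09, 3.00 and 8.20 CPM in steers, without overlap (log2 change 2.05 ± 0.72, adjusted p = 0.0790). BNIP3 and ANKRD37 passed with DESeq2 (0.0403 and 0.0130) and with the smooth muscle covariate (0.0418 and 0.0202). VEGFA, the main growth factor of blood vessels, had 34.2, 169, 81.8 and 47.2 CPM in calves and 79.2, 73.0, 147 and 209 CPM in steers, which overlap (log2 change 0.61 ± 0.52, adjusted p = 0.458). Of the 6 blood endothelial markers, PECAM1 was lower in steers and the others did not pass. BNIP3L, a relative of BNIP3 with the same role, was at 80.4 ± 24.0 and 83.8 ± 27.5 CPM. The collagen prolyl hydroxylase subunits P4HA1 and P4HA2 had log2 changes of 0.37 ± 0.38 and -0.47 ± 0.29, with calf 2 the highest of all animals for both. P4HA1 passed as higher without calf 2 (0.92, adjusted p = 0.0332). P4HA2 passed as lower with the smooth muscle covariates (-0.95 and -1.16, adjusted p of 0.0432 and 0.0436). The part of the lower fibroblast marker sums in the values of these collagen-modifying genes was not tested.

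Steer 4 and calves 1 and 4 stood apart in the hypoxia genes. Steer 4 was the highest of the 8 animals for 10 of the 12 genes, with a median deviation from the gene means of 1.39 on the log2 scale, against 0.20 to 0.55 in steers 1 to 3. Calf 4 was the lowest for 6 genes and calf 1 for 4, with median deviations of -0.98 and -0.75, whereas calves 2 and 3 were at 0.06 and 0.07. Among the glycolytic genes the medians were closer together, at -0.32 to 0.26, and steer 4 was highest for 3 of the 22. Steer 2 had the lowest median there and was the lowest animal for 6 genes. Without steer 4 the median log2 change of the hypoxia genes was 0.74 instead of 1.24, and EGLN1 (adjusted p = 0.0435), ADM (0.0276) and NDRG1 (0.0320) still passed the test. Steer 4 also had the smallest smooth muscle and basal epithelial sums of the steers. Its suprabasal, leukocyte and blood endothelial sums were the largest of the steers. The part of these in its hypoxia values was not tested beyond the smooth muscle covariate. With that covariate the called genes EGLN1, ADM and NDRG1 had larger changes (1.51, 2.00 and 1.71). Of its 9 markers, 4 were themselves higher in steers and ACTA2 lower, so such a fit cannot separate muscle content from group.

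**Figure D4:**
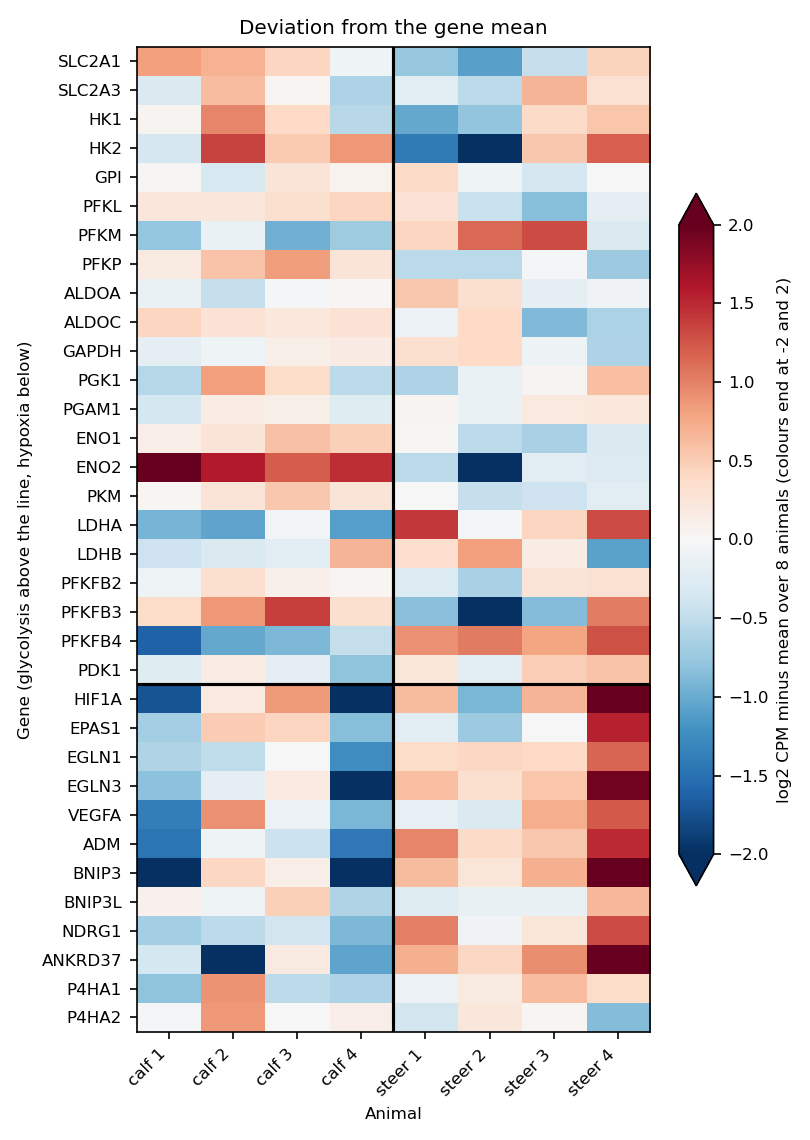
Log2 CPM of each tested gene (rows; glycolysis above the horizontal line, hypoxia below) in each animal (columns; calves left and steers right of the vertical line), as the deviation from its mean over 8 animals, with colours ending at -2 and 2. Steer 4 is the highest animal for 10 of the 12 hypoxia genes, and calves 1 and 4 are the lowest for 4 and 6.

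Other genes of the same pathways place these changes. Of 12 genes for the entry of pyruvate into mitochondria, 6 rose (50%, beside 7.7% of all tested genes) and 0 fell (beside 9.16%), with a median log2 change of 0.78. They were both subunits of the mitochondrial pyruvate carrier, MPC1 (28.0 ± 17.9 to 75.1 ± 9.6 CPM, log2 change 1.424 ± 0.39, edgeR adjusted p = 0.0320) and MPC2, the pyruvate dehydrogenase components DLAT, DLD (17.5 ± 2.4 to 48.0 ± 10.5 CPM, 1.46 ± 0.21, 0.00206) and PDHX, and the inhibitory kinase PDK3 (1.23 ± 0.28, 0.0154). The MPC1 call was lost without calf 1, calf 2, calf 3, steer 1 or steer 3 (adjusted p of 0.0879, 0.0706, 0.0631, 0.0546 and 0.0735), without calf 2 and steer 4 together (0.0800), with unscaled totals (0.0521) and with the covariates (0.0566 and 0.0948). Of 14 tested glycogen genes, 5 rose (35.7%, beside 7.7% of all tested genes) and 1 fell, with a median of 0.78. PYGM, the muscle glycogen phosphorylase, had 4.70, 2.74, 7.11 and 4.52 CPM in calves and 90.8, 143, 64.2 and 15.7 CPM in steers (4.04 ± 0.61, 0.00245). Every steer lay above every calf. Steer 4, whose smooth muscle sum is below those of 3 calves and the smallest of the steers, had the lowest PYGM level of the steers. The part of smooth muscle in the PYGM values was not tested beyond the covariates. With the covariates the PYGM change was 2.86 (0.0186) and 2.45 (0.0608). PYGB, the brain phosphorylase (1.61 ± 0.35, 0.0133), rose as well, as did UGP2 and PGM1, while the phosphoglucomutase PGM2 fell by 1.36 ± 0.26 on the log2 scale (0.00777). The PYGB change was 0.95 (0.0553) and 0.69 (0.208) with the covariates.

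LDHD, the mitochondrial dehydrogenase of D-lactate, which rumen microbes also produce, rose more than any member of the set. It had 1.16, 0.80, 1.18 and 1.63 CPM in calves and 21.1, 25.3, 19.4 and 8.94 CPM in steers, and the groups were far apart (log2 change 3.97 ± 0.39, edgeR adjusted p = 0.000305). LDHD and GAPDHS, the sperm-type relative of GAPDH (fell by 0.73 ± 0.19 on the log2 scale, 0.0264), were the calls among 13 tested isoenzymes (15.4%, beside 16.9% of all tested genes). PCK2, the mitochondrial enzyme that makes phosphoenolpyruvate, rose from 15.3 ± 5.0 to 92.1 ± 42.1 CPM (2.59 ± 0.36, 0.00175) and was the 1 call among 7 tested gluconeogenic genes (14.3%). None of 8 further tested glucose transporters passed. The one with the highest mean CPM, the insulin-responsive SLC2A4, had 18.2, 29.5, 14.5 and 17.8 CPM in calves and 41.1, 107, 70.1 and 16.2 CPM in steers. Its log2 change (1.55 ± 0.49, 0.0583) turned to -0.20 with the covariate without ACTA2. In the pentose phosphate pathway, PGLS, the lactonase, fell by 0.64 ± 0.18 on the log2 scale (0.0367) as the 1 call of 7 (14.3%, below the share of all tested genes as well). The GAPDHS call was lost without any 1 animal other than steer 4 (adjusted p of 0.0530 to 0.0822), and that of PGLS without calf 1, 3 or 4 or steer 1, 2 or 3 (0.0511 to 0.109). SLC2A4 passed the test without steer 4 (0.00744). The calls of LDHD and PCK2 were kept in every alternative analysis that tested them.

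Of 10 further oxygen-sensing genes, 0 rose and 2 fell, and this share of 20.0% called is near the 16.9% of all tested genes. HIF3A, an alpha subunit with forms that restrain the other HIFs, had 26.5, 131, 20.0 and 33.6 CPM in calves and 1.15, 3.23, 2.83 and 1.89 CPM in steers. Every steer was far below every calf, and HIF3A fell by 4.54 ± 0.68 on the log2 scale (edgeR adjusted p = 0.00226), or by 3.55 (0.00105) without calf 2, its highest animal. CITED2, which competes with HIF for its coactivator, fell by 0.69 ± 0.21 (0.0492), a call lost without any 1 animal other than calf 4 (0.0617 to 0.131). CITED2 was called in only 5 of 21 alternative analyses. Those that lost the call included limma-voom (0.0517), unscaled totals (0.0683) and no filter on low counts (0.0697). Of 27 tested further hypoxia-inducible genes, 3 rose and 2 fell, with a median log2 change of 0.18, 16 positive and 11 negative. AK4, a mitochondrial adenylate kinase (1.82 ± 0.46, 0.0233), and MXI1, a MYC antagonist (1.06 ± 0.28, 0.0284), rose. TFRC, the transferrin receptor, fell by 1.55 ± 0.32 on the log2 scale (0.0105), and P4HB, a chaperone that is also the partner subunit of the P4HA enzymes, fell by 1.36 ± 0.37 (0.0312). With the covariate without ACTA2 none of these 4 passed (0.0862 to 0.313), with log2 changes of 1.16 for MXI1, 1.26 for AK4, -1.23 for TFRC and -0.58 for P4HB. Among them, leaving out 1 animal ended the call of P4HB (calf 1 or 3, steer 1, 2 or 3, adjusted p of 0.0614 to 0.0827), MXI1 (calf 1, 2 or 4, steer 2 or 3, 0.0551 to 0.0836) and AK4 (calf 1, 3 or 4, steer 3, 0.0605 to 0.0742), but not that of TFRC. The share of this wider list that rose, 11.1%, is nearer to the 7.7% of all tested genes than the 25% of the 12 hypoxia members is, and the difference between the lists was not tested.

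**Figure D5:**
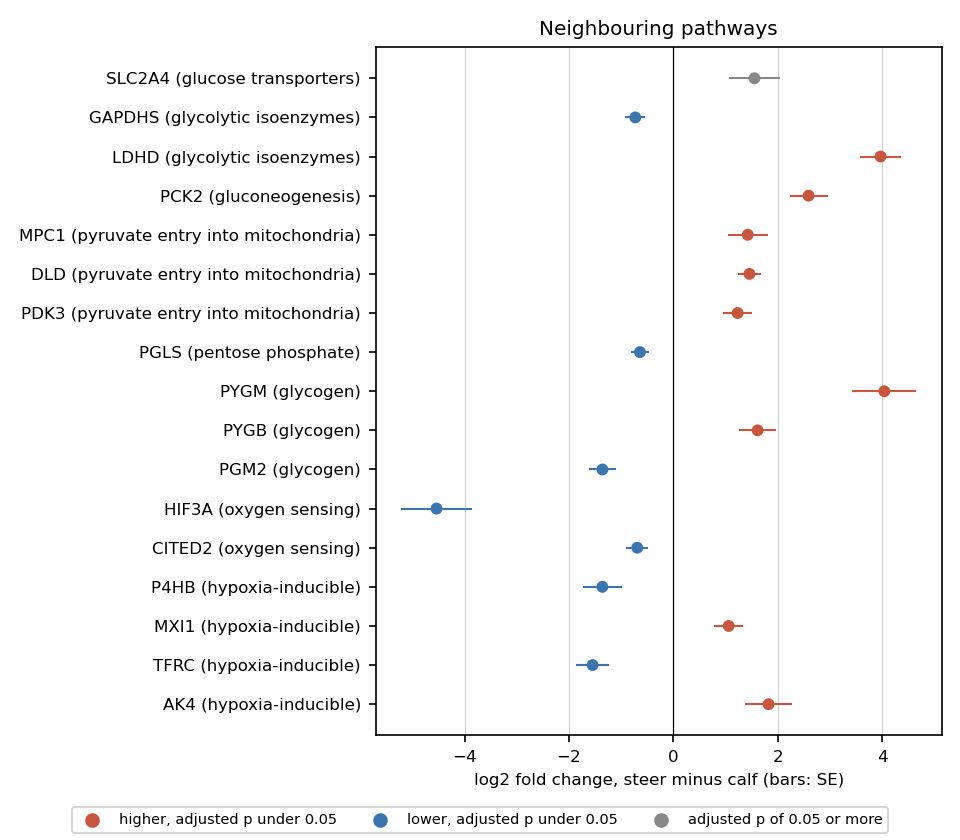
Log2 fold change, steer minus calf (x axis; points, with bars of 1 SE), of genes named from 8 further lists of glucose, glycogen, pyruvate and oxygen pathways (y axis, list in brackets). The largest changes are the rises of PYGM (4.04) and LDHD (3.97) and the fall of HIF3A (-4.54); the grey point, SLC2A4, did not pass the test.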

How the data were processed

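Whole-number counts per gene were deposited for 8 rumen libraries. Counting was by featureCounts 2.0.2 with transcripts as the feature and gene names as the key, per the file headers, which makes introns count. No strand was set, both mates of a pair counted (86.9% to 89.0% of low counts were even), and reads touching more than 1 gene were dropped. The libraries were made with dUTP, which marks strand, per the labels' protocols, but the counting did not use it. The submitters' processing notes also name Trimmomatic 0.39, STAR 2.7.11a and DESeq2 1.42.0. Neither build nor annotation is named in the labels or header, and positions are the file's own, 1-based. The file's columns carry an initial and a number, read as calf or steer 1 to 4. An ARS-UCD2.0 table gave chromosome numbers (83.4% of symbols matched).

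From the counts, edgeR 4.0.16 (R 4.3.3) was fitted over all 8 libraries: filterByExpr by group, TMM, robust quasi-likelihood F test, Benjamini-Hochberg adjustment over 16326 genes, threshold 0.05. The SE came from the log2 change over the root of F. CPM means are ± SD over 4 animals. The common biological coefficient of variation was 41.8%. No 2 libraries of a group agreed within sampling noise (smallest chi-square per degree of freedom 105). The procedure was tested on simulated data. Log2 CPM used a prior count of 2. Ratios used counts plus 0.5 and a two-sided exact permutation test. Alternatives were other scalings and filters, DESeq2, limma 3.58.1, a replicate block, a covariate of 9 smooth muscle markers, and libraries left out. Text names all 35 members and, from each further list, up to 3 called genes per direction by size of change. From a list with no call it names the member with the highest mean CPM. Some genes that this rule takes are not reported here. UGP2, PGM1, MPC2, DLAT, PDHX and the marker genes were named outside that rule. The members and lists were chosen with earlier results of these data known.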

Additional observations from a re-analysis of the deposited data

Results flagged for a closer look

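In 12 of 132 groups of 4 animals examined, 1 animal lay far from the other 3 by Dixon's criterion, which chance meets in about 1 of 20 groups. Steer 4 was the highest in 5 of them: EGLN1 (287 CPM), EGLN3 (211 CPM), BNIP3 (99.0 CPM), BNIP3L (125 CPM) and ANKRD37 (8.20 CPM), all hypoxia genes. Calf 2 was the highest in 4: P4HA1 (36.1 CPM), P4HA2 (76.0 CPM), HIF3A (131 CPM) and AK4 (7.67 CPM). The others were LDHA in calf 3 (422 CPM), LDHB in calf 4 (229 CPM) and PCK2 in steer 1 (155 CPM).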

How the results depend on the processing

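Of 708 results for single members under alternatives, 617 kept their direction and side of the threshold, 31 lost the call, 24 gained one and 36 changed sign. Glycolytic genes higher numbered 1 to 3 with 1 animal left out. Glycolytic genes lower (1 as reported) numbered 3 with DESeq2, 2 with limma-voom, 2 without calf 2 and steer 4 together, 0 with the smooth muscle covariate, 0 with ACTA2 left out of it (an alternative chosen after seeing the data) and 0 to 3 with 1 animal left out. Hypoxia genes higher (3 as reported) numbered 1 with unscaled library totals, 6 with DESeq2, 6 and 7 with the covariates and 1 to 3 with 1 animal left out. Hypoxia genes lower numbered 1 with each covariate (P4HA2). Over all genes, 835 were higher with unscaled totals, 694 with at least 10 CPM in 4 libraries (763 lower), 1928 with DESeq2 and 705 to 1473 with 1 animal left out, when 1029 to 1784 were lower. Unscaled totals made 34.9% of the calls higher instead of 45.7% and moved the median log2 change of all genes from 0.04 to -0.07.

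Replicate numbers name different animals. Same-numbered calves and steers correlated in their deviations at 0.20, 0.08, -0.10 and -0.27, and not every animal correlated best with its own number. With 4 animals per group, such correlations cannot decide whether the numbers pair animals. With a replicate block, 2 glycolytic and 0 hypoxia genes were higher (LDHA 0.0552, EGLN1 0.0811, ADM 0.0558 and NDRG1 0.0764 as adjusted p), and over all genes 785 were higher and 1046 lower.

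Sign changes were of uncalled genes. With the smooth muscle covariate the log2 change was 0.10 for GPI, -0.27 for GAPDH, 0.16 for PGK1, -0.57 for LDHB and 0.075 for PFKFB2. With ACTA2 left out it was 0.077 for HK1, 0.36 for HK2, 0.15 for GPI, -0.40 for GAPDH, 0.30 for PGK1, -0.87 for LDHB, 0.19 for PFKFB2, 0.21 for PFKFB3 and -0.20 for SLC2A4. With unscaled totals GAPDH was at -0.10 and BNIP3L at -0.034. GPI was at 0.014 without a filter and 0.034 without the 50 most abundant genes. Without calf 2 and steer 4, EPAS1 was at -0.031 and BNIP3L at -0.23. With 1 animal left out, the change ranged from -0.11 to 0.41 for SLC2A3, -0.14 to 0.10 for GPI, -0.065 to 0.22 for GAPDH, -0.36 to 0.22 for PGK1, -0.070 to 0.51 for LDHB, -0.28 to 0.020 for PFKFB2, -0.26 to 0.69 for EPAS1 and -0.20 to 0.25 for BNIP3L. The cause of these moves was not tested. None of the 13 ratios changed direction. With 1 animal left out, the ratios were compared by direction and size of the change only. Whether a ratio passed the test there was not judged. Of the 7 called members, each but PFKFB4 lost its call in at least 1 of the 21 alternatives. Depth limits ENO2, HK2, HIF1A and ANKRD37, with counts down to 0, 2, 3 and 8 in a library.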
